A study of Mus musculus with 34 samples.

Results

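The genes described here are the nuclear receptors, and the measurement is DNA methylation at their CpG islands. Probes were chosen by gene name, taking the autosomal names of the Nr0 to Nr6 groups together with the estrogen, estrogen-related, PPAR, retinoic acid, retinoid X, ROR, thyroid hormone, vitamin D and progesterone receptors. The rule used names alone, but it was set with earlier results of these data known. Of 97651 probes on the larger array, 460 carried such a name, and they fell into 62 islands of at least 3 probes with gaps of no more than 500 bases, among 13616 islands of the array. The 62 islands belong to 31 genes. Thra and Esr2 matched but had too few probes to score, while Pparg, Esrrg, Rxrg, Thrb, Nr1h3, Nr1h4, Nr1i2, Nr1i3, Nr2c2, Nr2e3 and Nr0b2 were not analysed here. Each island received a score, the mean over its probes of the log ratio of immunoprecipitated to input DNA after that ratio was turned into a Z-score within its array. A score of 0 marks the mean over the probes of an array, so the score ranks methylation within an array and is not a percentage of methylated molecules.

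Nuclear receptors are transcription factors with a zinc-finger DNA-binding domain and a ligand pocket. Steroid receptors are held by chaperones until their hormone arrives, whereas retinoic acid, thyroid hormone, vitamin D, oxysterol and fatty acid receptors sit on DNA as partners of a retinoid X receptor and exchange corepressors for coactivators when ligand binds. Orphan members such as the COUP-TFs, the NGFI-B group and the estrogen-related receptors act largely without a known hormone, and several of them govern early development: Esrrb maintains pluripotency, Nr6a1 shuts it down, and retinoic acid acting through Rara, Rarb and Rarg patterns the embryo. Methylation of a CpG island at a promoter is associated with stable silencing, while methylation of islands inside genes is common in normal tissue.

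The mouse DNA came from 8 adult tissues of C57Bl/6 animals aged 3 months (colon, pancreas, brain, kidney, liver, lung, muscle and spleen, 2 arrays each), from embryos of 8.5, 9.5, 10.5, 11.5 and 12.5 days post coitum (1 array each), from undifferentiated ES cells labelled EB5, J1 and TT2 (1 array each), from ES cells differentiated in vitro (5 arrays), from teratomas (2 arrays), and from purified beta cells, the beta cell line Min6 and the alpha cell line aTC (1 array each). The differentiated arrays were embryoid bodies from TT2 grown as hanging drops, cells treated with retinoic acid, 2 preparations of sorted definitive endoderm and 1 of sorted mesoderm, the last 3 made by Activin induction of a reporter line (Gsc and Sox17) derived from EB5. The labels give TT2 as the parent of the retinoic acid treated cells and J1 as the parent of the teratomas. The study's methods name J1 for the former and D3 and C4 for the latter. A figure legend of the study, like the label, names TT2 for the retinoic acid treated cells. The parent lines of these arrays thus remain uncertain. Teratomas grew under the skin of NOD-SCID mice, and beta cells were sorted from islets of animals carrying a Pdx1-GFP reporter. The study's supplement gives these animals as 2 to 8 months old. Its methods name C57Bl/6 for all mouse DNA. Nothing in the labels says whether arrays of a group came from separate animals or cultures in every case, so p-values measure the spread between these arrays. The array signal carries no transcripts, and the labelled tissues were not checked against marker genes.

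The array labelled J1 went against its label. Over all 13616 islands its scores were closest to those of pancreas 2 (r = 0.965) and pancreas 1 (r = 0.927), and its correlation with the arrays of EB5 and TT2 was 0.793 and 0.799, which is below its correlation with every adult array. Its scanner values also correlated with its column of the deposited value table at only r = 0.113, against 0.894 to 0.991 for the other 33 arrays. Results that rest on undifferentiated ES cells are therefore given with and without it. The 2 arrays of an adult tissue deviated from the adult mean together, over all islands, in 2 of 8 tissues, colon (r = 0.653) and pancreas (r = 0.358). At the receptor islands brain 1 deviated most like liver 2 (r = 0.678) and brain 2 most like liver 1 (r = 0.594), while brain 1 and brain 2 had r = -0.613, so the labels of these 4 arrays are given with that reservation. In addition, arrays were spread over 23 slides, and no embryo array shared a slide or a scan day with an adult array, so no difference between embryos and adult tissue can be read within a slide.

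Promoter windows are shown for the 4 receptors in which an island over the transcription start changed towards higher methylation in a comparison described below. They are RefSeq windows of 300 bases (250 before and 50 after the start, build GRCm38.p6), lie at chr14:16575427-16575726 for Rarb, chr15:97908247-97908546 for Vdr and chr8:71381903-71382202 for Nr2f6, all on the minus strand, and at chr17:28232504-28232803 on the plus strand for Ppard, and are written 5′ to 3′ with each CpG dinucleotide, the site of methylation, in capitals.
Rarb: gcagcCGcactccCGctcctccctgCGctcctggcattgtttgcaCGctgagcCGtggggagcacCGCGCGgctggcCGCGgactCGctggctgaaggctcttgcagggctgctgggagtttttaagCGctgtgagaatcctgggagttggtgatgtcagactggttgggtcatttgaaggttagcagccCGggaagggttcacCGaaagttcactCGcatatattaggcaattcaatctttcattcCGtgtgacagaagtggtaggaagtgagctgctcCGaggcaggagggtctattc
Vdr: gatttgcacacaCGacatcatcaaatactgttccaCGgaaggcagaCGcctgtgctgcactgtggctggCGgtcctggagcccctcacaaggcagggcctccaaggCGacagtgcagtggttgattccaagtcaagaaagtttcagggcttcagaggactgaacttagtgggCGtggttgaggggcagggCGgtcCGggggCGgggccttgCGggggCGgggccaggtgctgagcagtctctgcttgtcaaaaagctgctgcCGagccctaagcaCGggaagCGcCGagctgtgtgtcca
Nr2f6: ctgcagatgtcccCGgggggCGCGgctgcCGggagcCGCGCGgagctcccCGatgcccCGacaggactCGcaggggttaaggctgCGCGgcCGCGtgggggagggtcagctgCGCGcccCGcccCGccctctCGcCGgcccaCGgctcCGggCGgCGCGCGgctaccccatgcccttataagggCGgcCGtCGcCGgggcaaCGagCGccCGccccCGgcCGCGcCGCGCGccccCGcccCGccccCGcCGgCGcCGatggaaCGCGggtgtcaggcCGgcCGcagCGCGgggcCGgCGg
Ppard: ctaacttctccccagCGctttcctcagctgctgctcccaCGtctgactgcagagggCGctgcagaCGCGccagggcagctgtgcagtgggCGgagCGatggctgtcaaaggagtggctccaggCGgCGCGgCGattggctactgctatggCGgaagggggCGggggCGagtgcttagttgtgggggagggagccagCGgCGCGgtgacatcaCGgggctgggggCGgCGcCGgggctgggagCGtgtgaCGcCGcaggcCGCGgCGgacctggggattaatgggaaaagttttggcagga
The windows differed widely in CpG content. Nr2f6 held 53 CpGs, Ppard 27, Rarb 17 and Vdr 15, against a median of 17 over the 41 windows of the 29 receptor genes that the table lists and a median of 7 over all 32851 windows. The Rarb window holds gttcacCGaaagttca, a match to the letters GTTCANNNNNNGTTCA searched on both strands. These letters describe a pair of receptor half-sites spaced as in the retinoic acid response element through which Rarb is known to be induced by retinoic acid. The match includes a CpG. No other receptor window held it, and 0.0761% of all windows did. Island positions below are those of the array annotation, whose genome build is not given in the sources used here, and they are not interchangeable with the GRCm38.p6 positions. The islands over these 4 starts span from 658 bases (Ppard) to 2367 bases (Nr2f6) and are wider than the windows. Whether a change lies within the printed stretch was not tested.

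By the array annotation, 15 islands lay over a transcription start, 13 upstream, 25 inside a gene, 6 downstream and 3, all named Nr3c2, had no annotated place. Islands over a start had adult means from -0.546 to 0.254 with a median of -0.237, so none of the 15 was highly methylated on average. Islands inside genes ranged from -0.684 to 2.89 with a median of 0.111. The score was below 0 on all 16 adult arrays for 13 of the 62 islands (21.0%), against 29.8% of all islands. The lowest means belonged to an Nr3c2 island (-0.860), to an island inside Nr5a2 (-0.684), the LRH-1 gene of liver and early embryo, and to the starts of Esrra (-0.546) and Vdr (-0.506), followed by an island upstream of Nr4a3 (-0.475).

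At the other end, 4 islands were above 0.75 on every adult array. The highest was an island of Nr3c2, the mineralocorticoid receptor gene, at chr8:80081942-80082275, with 3.02 ± 0.249 (SD, n = 16). An island inside Nr1h2, which encodes the oxysterol receptor LXR beta, at chr7:44419934-44420494, scored 2.89 ± 0.278, an island inside Esrrb at chr12:87359017-87359681 scored 2.50 ± 0.319, and an island inside Ppard, a fatty acid receptor gene, scored 1.45 ± 0.275. Each of these genes also had another, lower island: Nr1h2 0.202 over the start, Ppard -0.0398 over the start and Esrrb -0.224 for its other intragenic island. Islands inside Nr4a2 (2.01 ± 0.844) and Nr1d1 (1.60 ± 0.686), an immediate-early gene and the clock repressor Rev-erb alpha, were high on average with a wider spread between adult arrays, including arrays of 1 tissue (Nr1d1 1.72 and 0.228 in brain, 0.489 and 2.23 in liver).

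**Figure D1:**
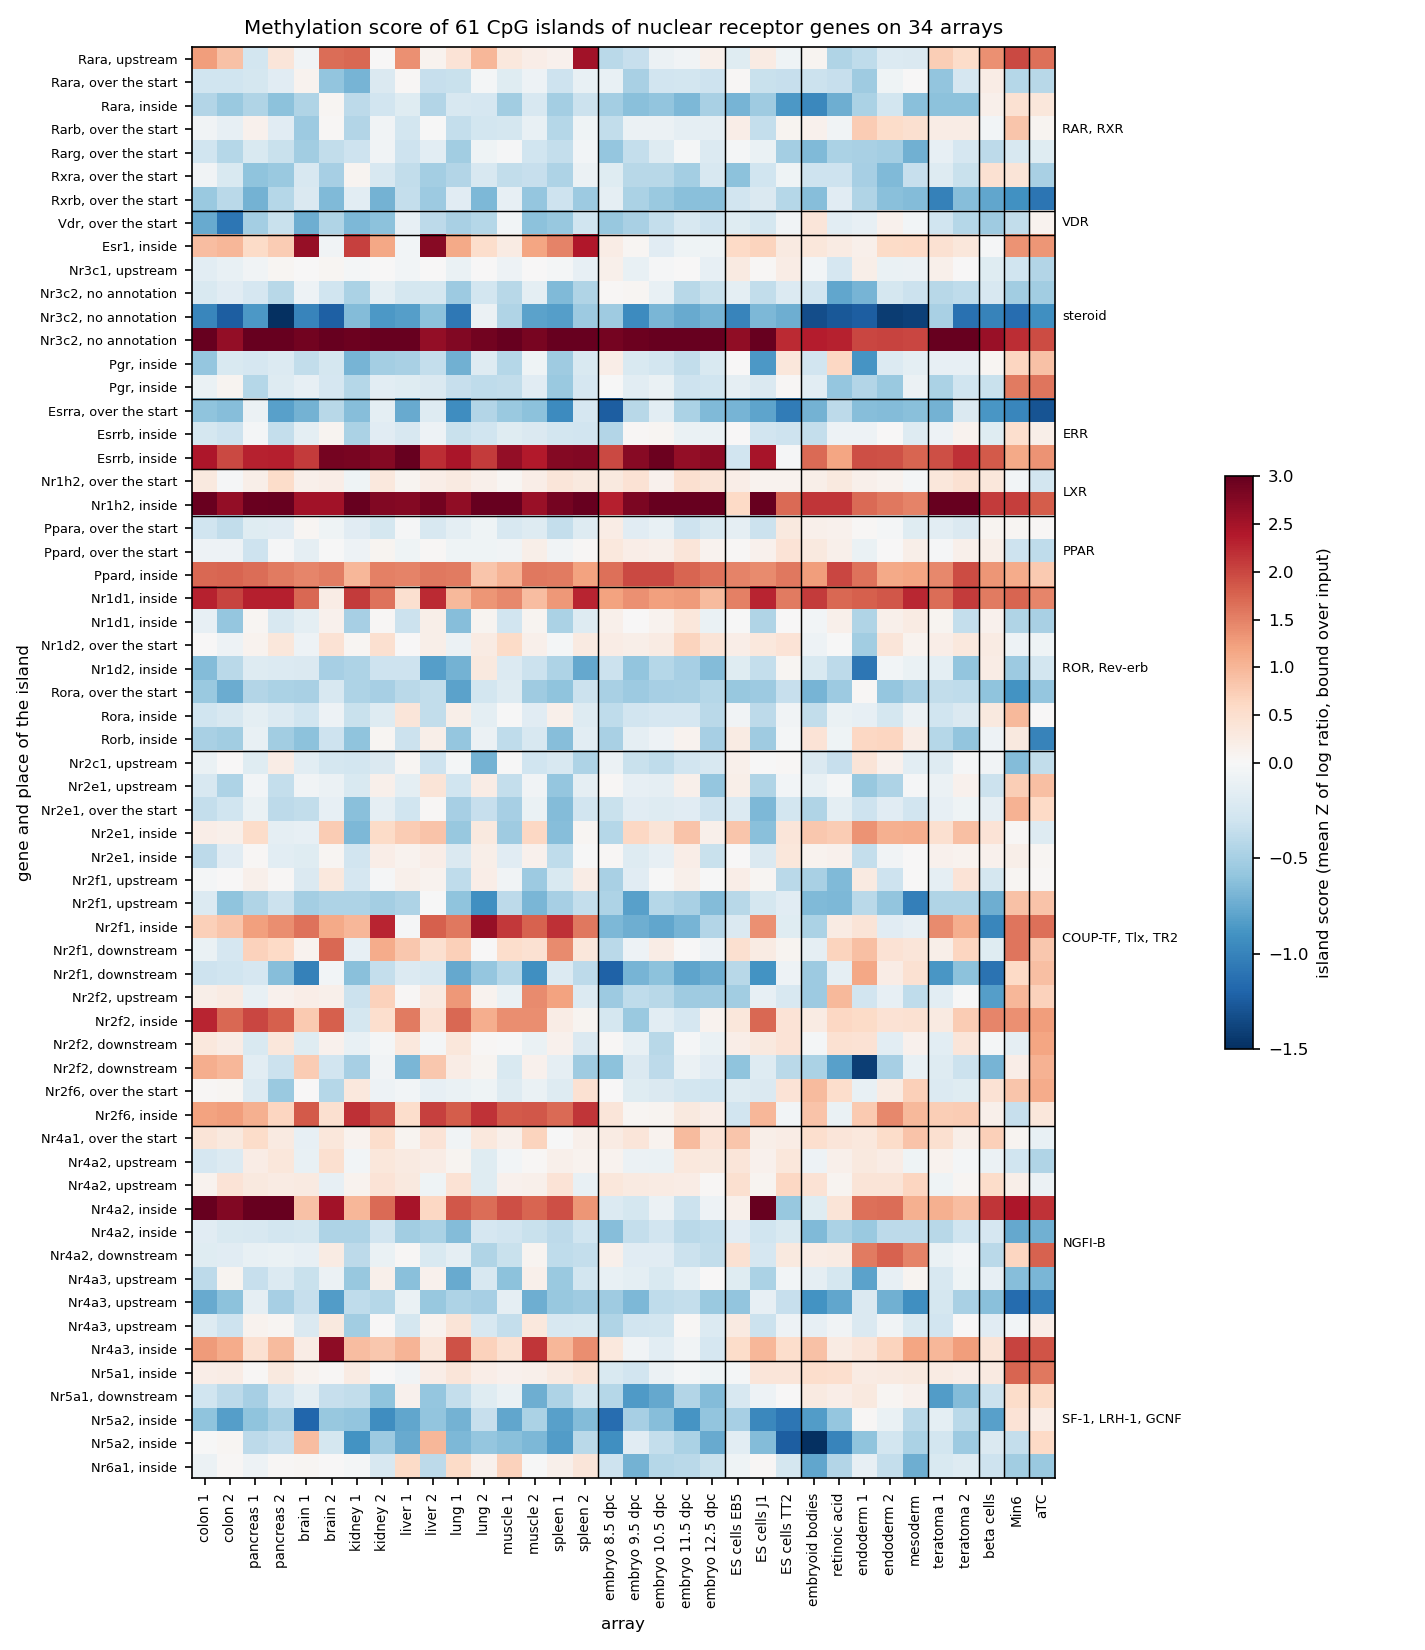
Island scores (colour, mean Z of the log ratio of bound over input) of 61 of the 62 receptor islands (rows, grouped by receptor family, with place relative to the gene) on 34 arrays (columns, grouped as in the text). Nr4a2, Nr2f1 and Nr2f2 inside the gene are red in adult tissue and pale or blue in embryos, and the array labelled J1 looks like the adult columns at Esrrb, Nr1h2 and Nr4a2.

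Tissue of origin gave no call among the receptors. The question of tissue-specific receptor methylation was addressed by a limma F-test over the 8 tissues, in which 0 of 62 islands passed an adjusted p of 0.05 (0.0808% of all islands did) and 2 had an unadjusted p under 0.05. Contrasts of 1 tissue against the other 7 called 0 islands as well by limma, with 9 at an unadjusted p under 0.05. The spread of tissue means was wide at some islands: the island inside Nr4a2 averaged 3.35 in pancreas and 1.34 in kidney, and that inside Nr2f2 averaged 2.00 in colon and 0.122 in kidney. With 2 arrays a tissue, these differences did not pass the test. Without the 4 brain and liver arrays, an alternative chosen after seeing the data, limma still called 0 islands over the 6 tissues left (7 at an unadjusted p under 0.05) and 2 in 1 tissue against the others: Nr4a2 inside the gene was higher in pancreas by 1.46 ± 0.202, and the downstream island of Nr2f2 was higher in colon by 1.19 ± 0.164 (limma adjusted p = 0.0404 and 0.0152). The shares of all islands called in contrasts of 1 tissue are not given here, so these 2 calls cannot be set against them. In DNA of a whole tissue, fewer cells with a methylated island and less methylation per cell cannot be told apart.

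Receptor islands in ES cells differentiated in vitro differed from adult tissue in both directions. By limma, 19 of 62 islands (30.6%) in 15 genes passed an adjusted p of 0.05, against 23.2% of all islands. Of these, 8 were higher in differentiated cells (14.4% of all islands were) and 11 were lower (8.73% of all islands were). The median difference over the 62 islands was -0.0556, and over all islands -0.00995. By place, 3 of 6 downstream islands rose and 1 fell, where 25.2% and 6.78% of all downstream islands did. Over a start 3 of 15 rose and 1 fell (10.8% and 6.92% of all start islands), and inside genes 2 of 25 rose and 6 fell (17.8% and 14.2% of all islands inside genes).

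**Figure D2:**
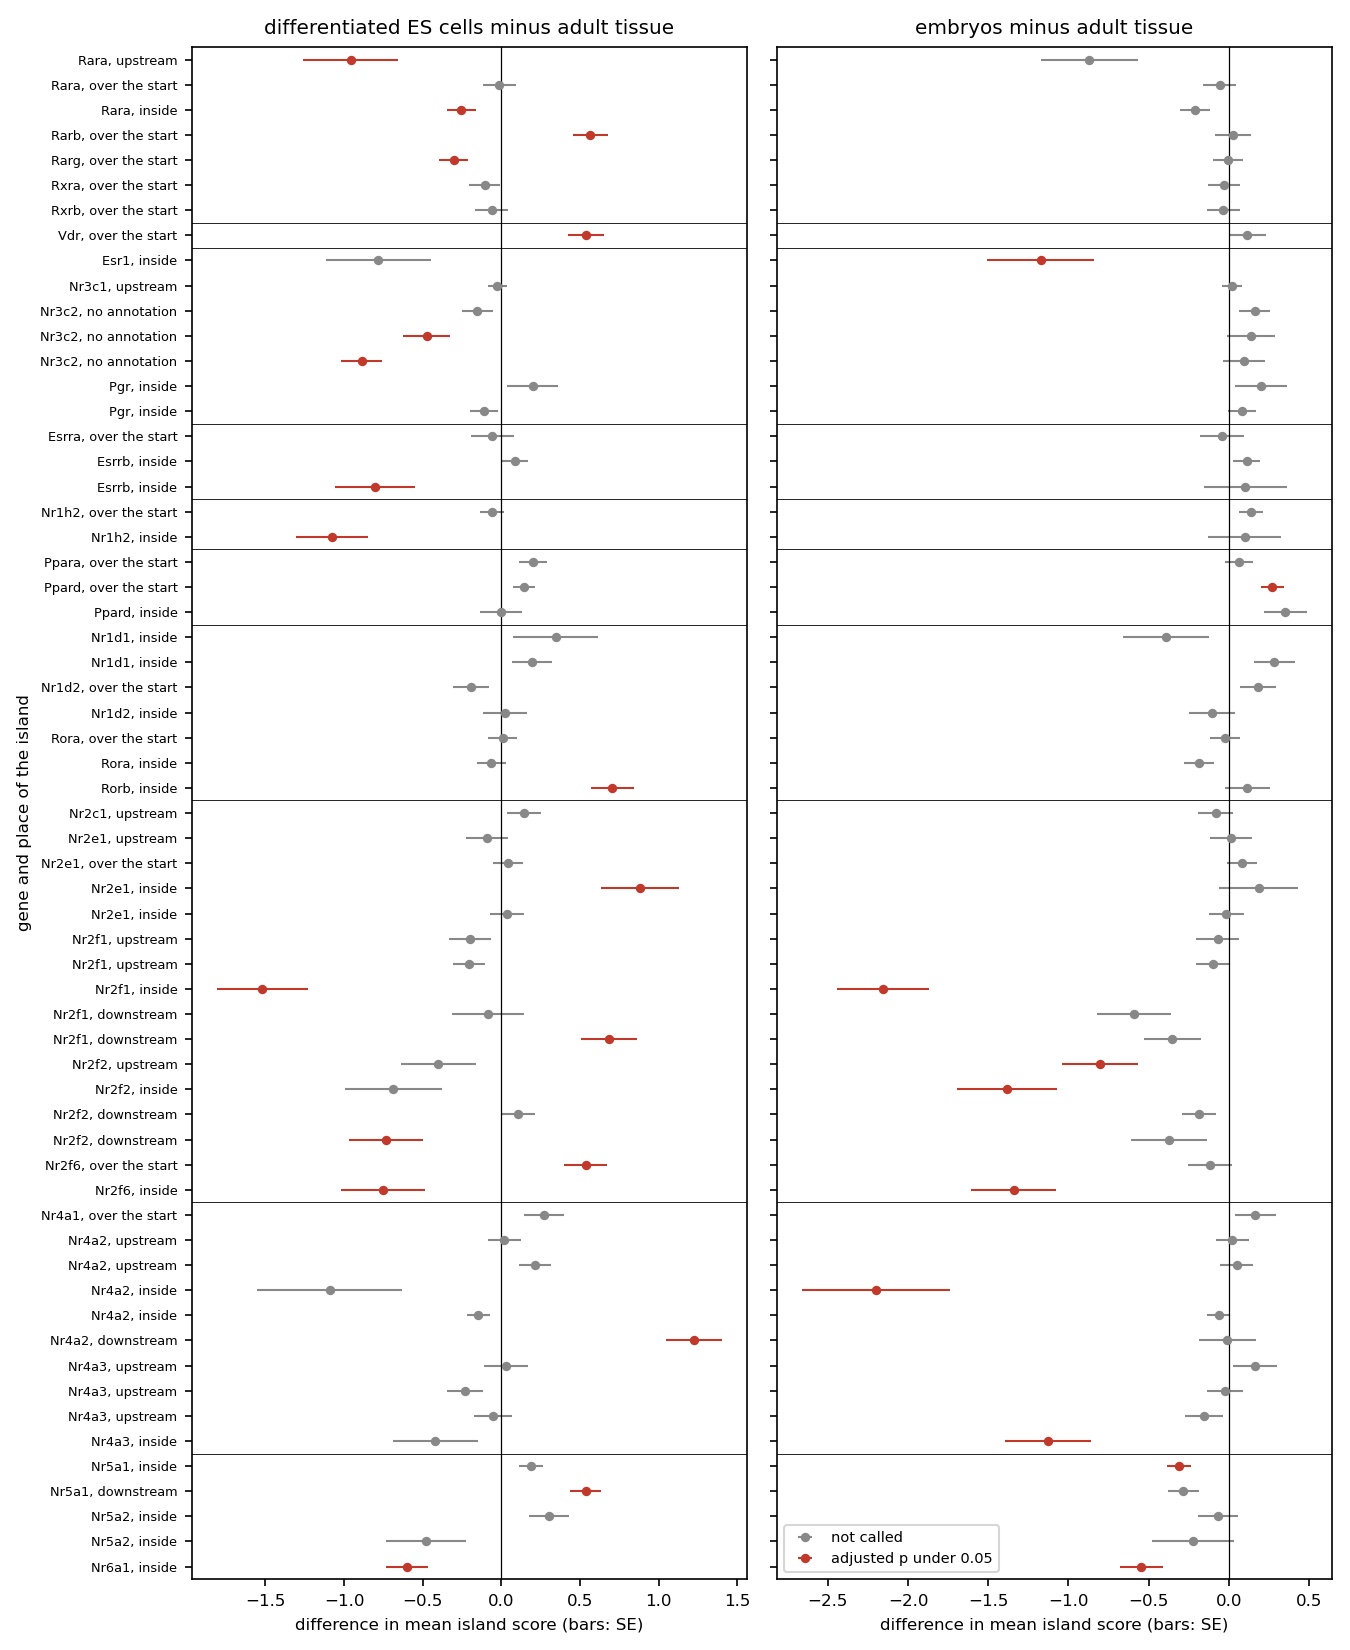
Difference in mean island score from the 16 adult arrays (horizontal axis, score units, bars are standard errors of the limma fit) for differentiated ES cells (left, 5 arrays) and embryos (right, 5 arrays), with 61 of the 62 islands as rows grouped by receptor family. Red points passed an adjusted p of 0.05: 19 on the left, 8 of them to the right of 0, and 10 on the right, where only the start of Ppard lies above 0.

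Among the retinoic acid receptors, 1 island rose and 3 fell of 7 islands in 5 genes. Rarb, the receptor whose own gene is a retinoic acid target, rose over its start. Its adult scores ran from -0.545 through a median of -0.147 to 0.130, while endoderm gave 0.770 and 0.556, mesoderm 0.487, embryoid bodies 0.130, and cells given retinoic acid -0.0548. The EB5-derived arrays were therefore above all adult arrays, and the other differentiated arrays were not. The mean was 0.378 ± 0.334 (n = 5) against -0.188 ± 0.190 (n = 16), a difference of 0.566 ± 0.113 (SE, limma adjusted p = 0.000391). With slide as a block the difference was 0.259 (limma adjusted p = 0.162). Teratomas gave 0.216 and 0.233 at this island. The 7 probes of the island run from -629 to 33 bases relative to the start in the array annotation.

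The other receptors of this family moved the other way or not at all. Rarg fell over its start by 0.302 ± 0.0923 (limma adjusted p = 0.0168), from an adult mean of -0.270, with all 5 differentiated arrays between -0.721 and -0.469. Rara, the broadly expressed retinoic acid receptor, fell upstream of its start by 0.959 ± 0.303 (limma adjusted p = 0.0210): adult arrays spread from -0.281 to 2.51 with a median of 0.382, and differentiated arrays lay between -0.448 and 0.0797, with retinoic acid treated cells (-0.448) and endoderm 1 (-0.386) below every adult array and the other 3 within the adult range. An island inside Rara also passed with a difference of -0.254 at a limma adjusted p of 0.0499, and it lost the call when any of 9 arrays was left out. The starts of Rara, Rxra and Rxrb, the latter shared with Slc39a7, did not pass.

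Vdr, the vitamin D receptor gene, has a single island, over its start, and it rose by 0.541 ± 0.114 (limma adjusted p = 0.000751). Adult arrays ran from -1.09 through -0.494 to -0.0370. Embryoid bodies reached 0.365, retinoic acid treated cells -0.161, endoderm -0.124 and 0.140 and mesoderm -0.0446. The differentiated values overlapped the top of the adult range, and the mean of 0.0353 stayed near the array average. Nr2f6, which encodes the orphan EAR2, rose over its start by 0.538 ± 0.136 (limma adjusted p = 0.00439), with 0.954 in embryoid bodies, 0.519 in retinoic acid treated cells, -0.106 and 0.235 in endoderm and 0.717 in mesoderm, against an adult median of -0.0863 and a highest adult score of 0.461.

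Steroid receptor genes showed no rise. Both of the Nr3c2 islands that passed fell. The island at chr8:80081942-80082275 went from an adult range of 2.63 to 3.55 to 2.35 in embryoid bodies, 2.31 in retinoic acid treated cells, 2.00 and 2.02 in endoderm and 2.00 in mesoderm, with no overlap between the groups. The difference was -0.888 ± 0.132 (limma adjusted p = 9.45e-06). Methylation at this island thus remained well above the array average in every group. A low island of the same gene at chr8:79798106-79798446 went lower still, by -0.474 ± 0.150 (limma adjusted p = 0.0206). Esr1, Pgr and Nr3c1, the estrogen, progesterone and glucocorticoid receptor genes, had no island past the threshold.

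Islands with the highest adult methylation were also lower in differentiated cells at Nr1h2 and Esrrb. Nr1h2 scored 2.15, 2.14, 1.71, 1.57 and 1.50 in embryoid bodies, retinoic acid treated cells, endoderm 1, endoderm 2 and mesoderm, all below the lowest adult array at 2.51, and fell by 1.08 ± 0.228 (limma adjusted p = 0.000791). Esrrb scored 1.69, 1.18, 1.93, 1.92 and 1.75 in the same order, all below the lowest adult array at 1.99, and fell by 0.803 ± 0.257 (limma adjusted p = 0.0224). Neither PPAR gene had an island past the threshold. Of the clock-linked receptors, 1 of 8 islands passed: that inside Rorb, a receptor of retina and brain, rose by 0.705 ± 0.138 (limma adjusted p = 0.000334), with 0.629 and 0.638 in endoderm, 0.233 in mesoderm, 0.422 in embryoid bodies, and -0.0588 after retinoic acid, against an adult median of -0.352.

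The COUP-TF and Tlx genes, which direct the development of nervous system, heart and vessels, contributed 3 rises and 3 falls among 16 islands. Nr2f1, the COUP-TFI gene, had a fall inside the gene and a rise downstream. Its intragenic island at chr13:78658543-78659190 had an adult median of 1.58 and a range of -0.0157 to 2.61, and scored -0.472 in embryoid bodies, 0.248 in retinoic acid treated cells, 0.377 and -0.172 in endoderm and -0.125 in mesoderm. The fall of 1.52 ± 0.287 (limma adjusted p = 0.000219) was the largest among the receptor islands. A downstream island of the same gene at chr13:78644780-78645056 rose by 0.687 ± 0.179 (limma adjusted p = 0.00552), and this rise rested on the EB5-derived arrays, with 1.15, 0.222 and 0.455 against -0.545 in embryoid bodies, with -0.136 after retinoic acid. The downstream difference was 0.479 within the slide of endoderm 2 and pancreas 1 and -0.506 within that of embryoid bodies and brain 2. With slide as a block, an estimate that rests on these 2 slides, it was -0.0135 (limma adjusted p = 0.982). The islands upstream of Nr2f1 did not pass.

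Nr2e1, the Tlx gene of neural stem cells, rose at an intragenic island by 0.883 ± 0.247 (limma adjusted p = 0.00926), to between 0.770 and 1.34 from an adult median of 0.175 and a highest adult array of 0.847, which exceeds 2 of the 5 differentiated arrays. With slide as a block this difference was 0.282 and with scan day 0.412 (limma adjusted p = 0.566 and 0.492). Over the Nr2e1 start, with 24 probes the best covered of all receptor islands, the difference was 0.0415 and did not pass. Nr2f2, the COUP-TFII gene of veins and mesenchyme, fell at a downstream island by 0.736 ± 0.236 (limma adjusted p = 0.0226), with a difference of -0.264 with slide as a block (limma adjusted p = 0.679). Nr2f6 fell inside the gene by 0.751 ± 0.266 (limma adjusted p = 0.0396), although on the slide shared by embryoid bodies and brain 2 the difference was 0.364 and on the slide shared by endoderm 2 and pancreas 1 it was 0.379, both in the opposite direction.

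In the NGFI-B group, immediate-early orphan receptors, a downstream island of Nr4a2 at chr2:56917679-56918169 had the largest rise among the receptor islands, 1.22 ± 0.178 (limma adjusted p = 6.66e-06). Endoderm scored 1.56 and 1.78 and mesoderm 1.48, whereas embryoid bodies scored 0.223 and retinoic acid treated cells 0.239, close to the highest adult array at 0.235. The rise was thus carried by the arrays that came from EB5. Inside Nr4a2, at chr2:56926962-56927566, the difference of -1.09 ± 0.460 did not pass (limma adjusted p = 0.0881), with scores from -0.184 in embryoid bodies to 1.68 in endoderm 2. Nr5a1, which encodes the steroidogenic factor SF-1, rose at a downstream island by 0.536 ± 0.0990 (limma adjusted p = 0.000163) with all 5 arrays between 0.0533 and 0.296. Nr6a1, the GCNF gene, fell by 0.599 ± 0.134 (limma adjusted p = 0.00134).

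These differences were also read within a slide, since 2 slides held both kinds of array. Within the slide of endoderm 2 and pancreas 1, 16 of the 19 differences had the same sign as in the whole set, and 16 of 19 did so within the slide of embryoid bodies and brain 2. These arrays also entered the calls, which favours the same sign, so the counts are no independent check. The same share over all called islands is not given here. With slide as a fixed block 8 islands passed, and with scan day 10. Differences at the Nr2f6 start, Rorb, Vdr, Nr5a1 and the high Nr3c2 island passed with either block. With normexp background correction, an alternative described below, the Nr2f6 start and Rorb still passed (limma adjusted p = 0.00977 and 0.0110). Vdr, Nr5a1 and the high Nr3c2 island then lost the call (limma adjusted p = 0.0530, 0.401 and 0.143).

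**Figure D3:**
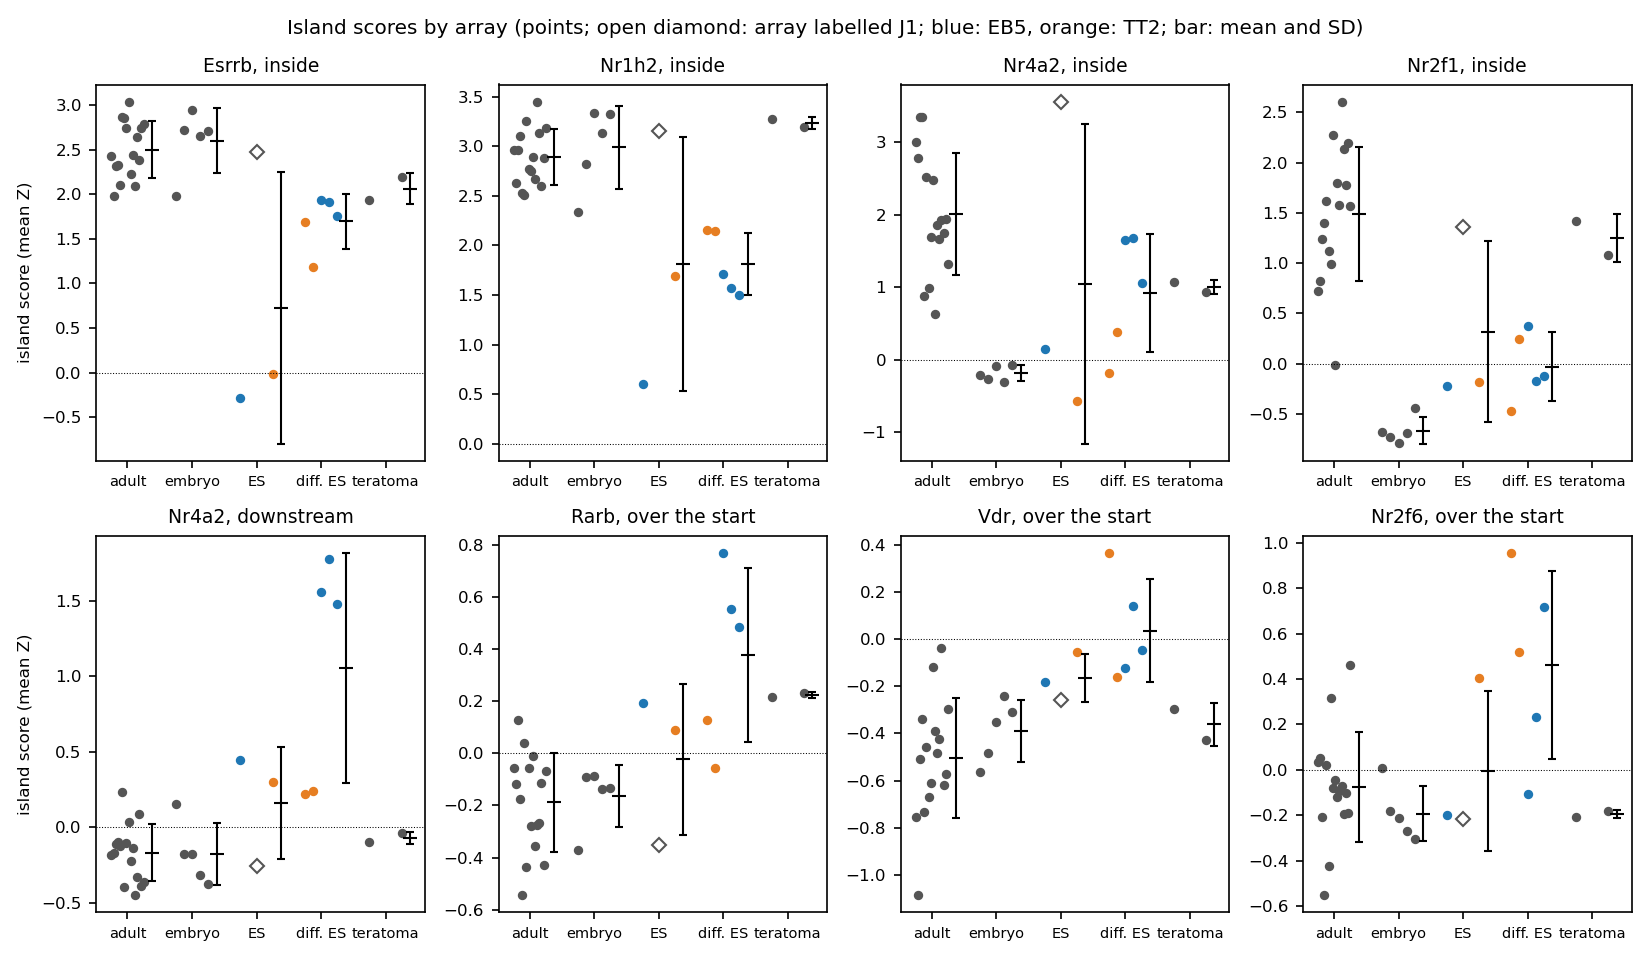
Scores of 8 receptor islands (vertical axis, mean Z) on each array of 5 groups, with the mean and SD of the group beside the points. The open diamond is the array labelled J1, blue points are EB5 and the arrays derived from it, and orange points are TT2 and the arrays labelled as derived from it. EB5 and TT2 lie far below adult tissue at Esrrb while J1 lies among the adult arrays, and downstream of Nr4a2 the blue differentiated arrays lie at 1.48 to 1.78 and the orange ones at 0.223 and 0.239.

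Embryos were compared with adult tissue to ask how receptor islands stand before organs mature, using the same adult arrays as above. Here 10 of 62 islands (16.1%) in 9 genes passed by limma against 8.64% of all islands, and 9 of the 10 were lower in embryos, where 3.47% of all islands were lower. The single rise, among 5.17% of all islands, was the start of Ppard, by 0.270 ± 0.0710 (limma adjusted p = 0.0145), with embryos at 0.318, 0.194, 0.150, 0.374 and 0.113 from 8.5 to 12.5 days against an adult mean of -0.0398 ± 0.103. The falls were at 8 of 25 islands inside genes (7.52% of all islands inside genes were lower), 1 of 13 upstream islands (5.72%) and 0 of 15 islands over a start (1.46%).

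The largest fall was inside Nr4a2. Embryos of 8.5, 9.5, 10.5, 11.5 and 12.5 days scored -0.208, -0.264, -0.0827, -0.317 and -0.0767, and adult arrays 0.632 to 3.35 with a median of 1.89, so the groups did not overlap and the difference was -2.20 ± 0.460 (limma adjusted p = 0.00231). Inside Nr2f1 embryos scored -0.676, -0.734, -0.784, -0.692 and -0.443, all below the lowest adult array at -0.0157, and the difference was -2.16 ± 0.287 (limma adjusted p = 1.94e-05). The other COUP-TF genes behaved alike in sign. Nr2f2 was lower inside the gene by 1.38 ± 0.309 and upstream by 0.806 ± 0.237 (limma adjusted p = 0.00413 and 0.0292), and Nr2f6 inside the gene by 1.34 ± 0.266 (limma adjusted p = 0.00137).

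Nr4a3, the NOR-1 gene, was lower inside the gene in embryos by 1.13 ± 0.268 (limma adjusted p = 0.00691), and Esr1 by 1.17 ± 0.335 at an intragenic island (limma adjusted p = 0.0244) where adult arrays of 1 tissue disagreed, with 2.61 and -0.0562 in brain and -0.0425 and 2.74 in liver. Nr6a1 and Nr5a1 were lower inside the gene by 0.547 and 0.312 (limma adjusted p = 0.00853 for both). At the islands that were highest in adult tissue, embryos were high too: Nr3c2 averaged 3.12 ± 0.204, Nr1h2 2.99 ± 0.420 and Esrrb 2.60 ± 0.365 (n = 5), and differences at these 3 islands were 0.0950, 0.0985 and 0.103, none past the threshold. With slide as a random block 6 islands passed, with slide or scan day as a fixed block 0 did, and without the 9.5 day embryo 6 did.

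**Figure D4:**
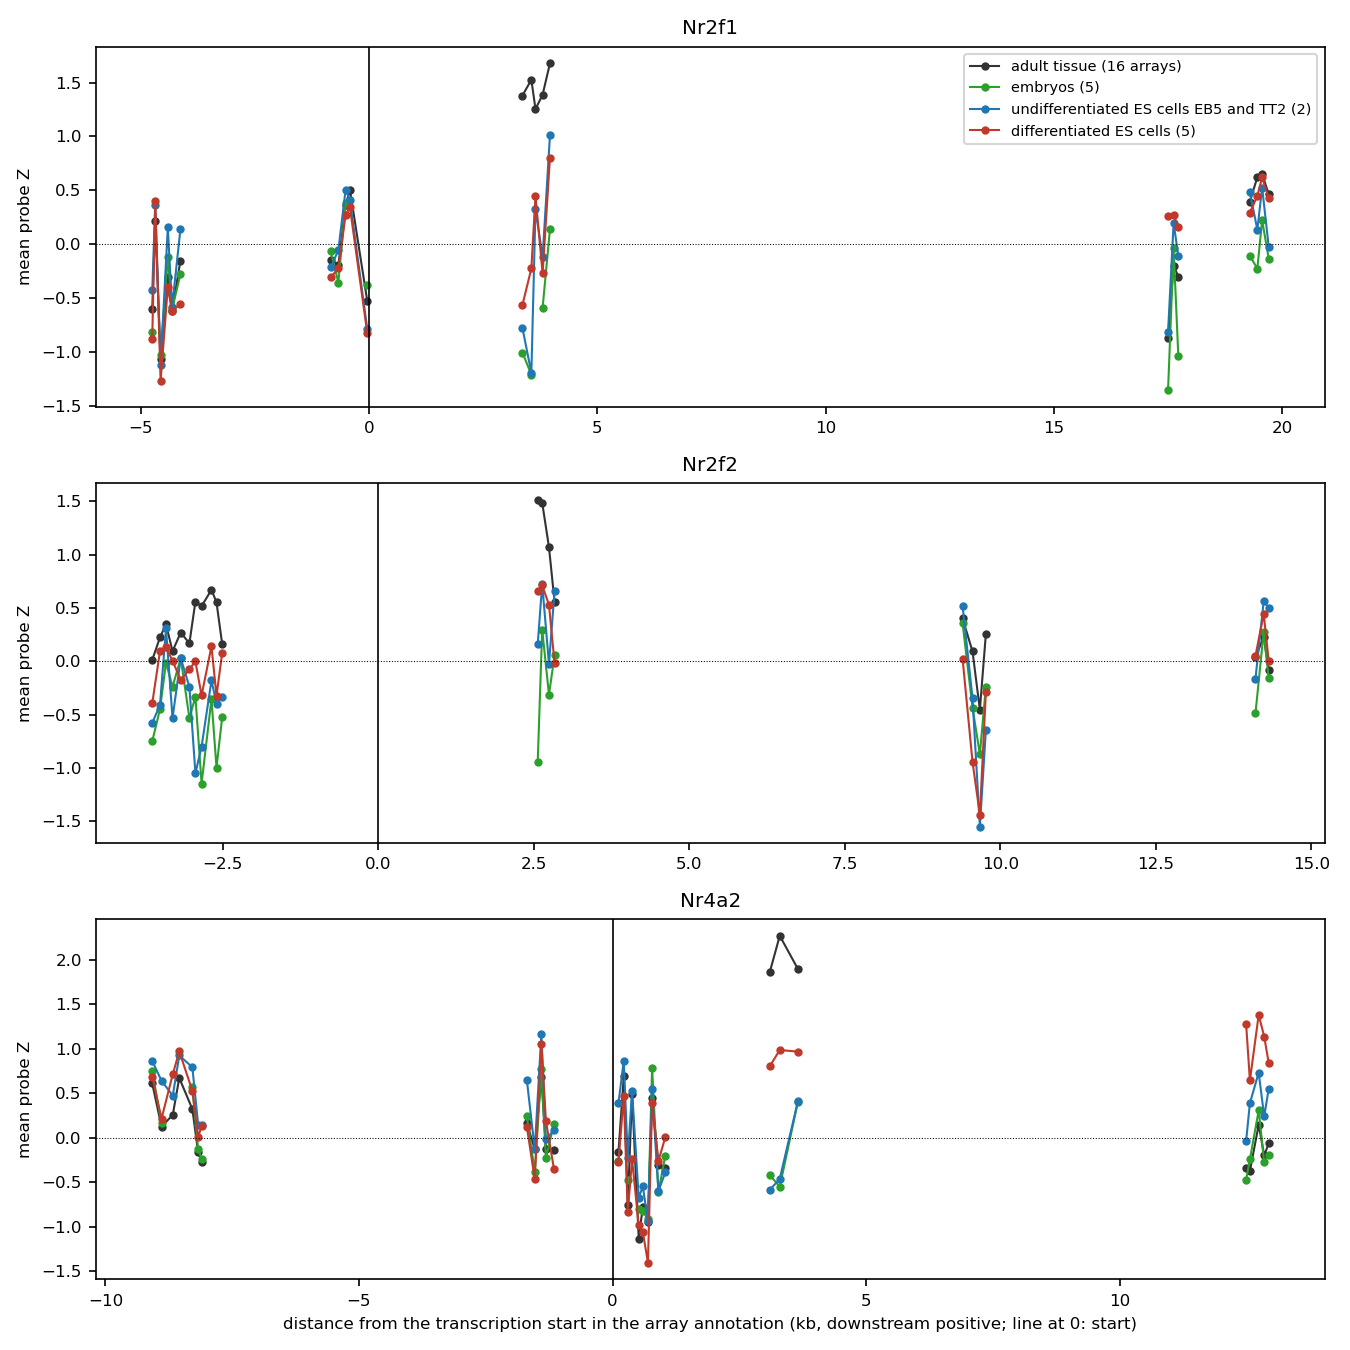
Mean probe Z-score (vertical axis) against distance from the transcription start of the array annotation (horizontal axis, kb, negative upstream) for Nr2f1, Nr2f2 and Nr4a2, by group (16 adult, 5 embryo, 2 undifferentiated and 5 differentiated arrays; the array labelled J1 is left out). Groups lie close together at most probes near the starts of Nr2f1 and Nr4a2. The Nr2f2 probes nearest its start lie at -2507 and 2564 bases, so that start is not covered. Adult tissue stands above the other groups at the island a few kb inside Nr2f1 and Nr4a2 and at 3 of 4 probes of that inside Nr2f2. Differentiated ES cells stand above the other groups at 1 downstream island of Nr2f1 and at that of Nr4a2.

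Differentiated ES cells were also set against embryos directly. Of the 62 islands, 12 passed by limma (19.4%; 21.1% of all islands did), 8 higher and 4 lower in differentiated cells, against 11.8% and 9.29% of all islands. The rises in differentiated cells were at Nr4a2 downstream (1.23 ± 0.219), Nr2f1 downstream (1.04 ± 0.221), Nr5a1 downstream (0.819 ± 0.122), the Nr2f6 start (0.655 ± 0.168), Rorb (0.590 ± 0.171), the Rarb start (0.540 ± 0.139), Nr5a1 inside the gene (0.50 ± 0.0939) and the Vdr start (0.426 ± 0.141). The falls were at Nr1h2 (-1.18 ± 0.282), both Nr3c2 islands named above (-0.983 ± 0.163 and -0.613 ± 0.185) and Esrrb (-0.906 ± 0.317). At the starts of Rarb and Vdr no differentiated array lay below an embryo array. The test had picked these islands, and the same share over all islands was not counted. The Vdr call was lost on the log2 scale and with normexp (limma adjusted p = 0.0714 and 0.116), and the Rarb call with normexp (limma adjusted p = 0.218). This comparison and the previous ones share arrays, so their calls are not independent of each other. As with adult tissue, no embryo array shared a slide with a differentiated array, and with slide as a fixed block 0 of the 12 passed.

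EB5 and TT2 lay far below adult tissue at Esrrb. EB5 scored -0.282 and TT2 -0.0198 at its intragenic island, while the array labelled J1 scored 2.48, within the adult range of 1.99 to 3.04. With all 3 arrays, limma called 3 of 62 islands lower than adult tissue (4.84%; 2.3% of all islands were called in either direction): Esrrb by 1.77 ± 0.315, Nr2f6 inside the gene by 1.32 ± 0.326 and Nr1h2 inside the gene by 1.08 ± 0.280 (limma adjusted p = 0.00515, 0.0279 and 0.0361). Leaving out EB5 or TT2 left 0 calls. Without the array labelled J1, 7 islands were called against 8.45% of all islands. Esrrb was then lower by 2.65 ± 0.231 (limma adjusted p = 2.66e-09), and Nr4a2 inside the gene by 2.22, Nr1h2 by 1.75, Nr2f6 by 1.71, Nr2f1 inside the gene by 1.69 and Nr3c2 by 0.574 were lower, while the island upstream of Nr3c1 was higher by 0.279.

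The array labelled J1 lay within the adult range at most islands called lower than adult tissue in other groups. Of 11 islands called lower in differentiated cells, J1 lay within the adult range at 11. EB5 lay within it at 6 and below it at 5, and TT2 at 5 and 6. Of 9 called lower in embryos, J1 lay within it at 8 and above it at 1. EB5 lay within it at 5 and below it at 4, and TT2 at 6 and 3. The islands called lower in undifferentiated cells are left out, since EB5 and TT2 entered that choice. The same shares over all islands were not counted, so these counts do not by themselves liken J1 to adult tissue. Nr4a2 inside the gene shows the contrast between the lines, with 0.146 for EB5, -0.573 for TT2 and 3.56 for J1. At Nr1h2 the values were 0.601, 1.69 and 3.16.

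Differentiation itself was asked about by setting differentiated against undifferentiated cells. Only the downstream island of Nr4a2 passed by limma with all arrays, higher by 0.892 ± 0.253 after differentiation (limma adjusted p = 0.0351; 1 of 62 islands or 1.61%, against 5.43% of all islands). Without the array labelled J1 that call was lost and Esrrb passed in its place, higher by 1.85 ± 0.257 (limma adjusted p = 0.000101; 3.58% of all islands were called). Every differentiated array exceeded its labelled line at Esrrb: the 3 EB5-derived arrays were 2.04 to 2.21 above EB5, and embryoid bodies were 1.71 and the cells given retinoic acid 1.20 above TT2. Esrrb methylation in differentiated cells therefore lay between undifferentiated EB5 and TT2 and adult tissue.

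Teratomas, which are ES cells differentiated inside an animal, gave no call against adult tissue: limma called 0 of 62, with 5 at an unadjusted p under 0.05 and 0.206% of all islands called. Compared with the cells differentiated in vitro, 6 islands passed (9.68%; 6.62% of all islands). Teratomas were higher at Nr1h2, with 3.28 and 3.19 against 1.82 ± 0.312, and at the high Nr3c2 island, with 3.33 and 3.26 against 2.13 ± 0.177. They were lower downstream of Nr4a2 (-0.0953 and -0.0392 against 1.05 ± 0.760), downstream of Nr5a1 (-0.842 and -0.653 against 0.193 ± 0.101), downstream of Nr2f1 (-0.873 and -0.616 against 0.230 ± 0.640) and at Rorb (-0.430 and -0.589 against 0.373 ± 0.293). The groups did not overlap at these 6 islands, but the test had picked them, and the same share over all islands was not counted. Without the first teratoma 2 islands passed and without the second 3 did, Nr1h2 and the high Nr3c2 island in both cases.

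Sorted beta cells, Min6 and aTC were measured on 1 array each, so no test is possible and the values are given side by side. Min6 scored above 0.75 at 21 of the 62 islands (33.9%; 19.5% of all islands) and aTC at 23 (37.1%; 23.1%), against 9 (14.5%; 12.7%) in sorted beta cells. Pgr, the progesterone receptor gene, was at 1.56 in Min6 and 1.61 in aTC at an island inside the gene where beta cells scored -0.328 and adult tissue averaged -0.253. Nr5a1 inside the gene scored 1.74 and 1.59 against 0.272 in beta cells, where adult tissue averaged 0.172. Nr2f1 inside the gene scored 1.60 and 1.65 against -0.979 in beta cells. There adult tissue averaged 1.49, with 1.24 and 1.40 in whole pancreas. The lines were thus above beta cells at each of these islands, but at Nr2f1 they lay near the adult average and the beta cell array was the low one. Nr2f6 inside the gene scored -0.351 in Min6, 0.335 in aTC and 0.157 in beta cells, all below the lowest adult array at 0.482.

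Of the 13 islands below 0 on every adult array, Min6 was above 0.75 at 1 (4.42% of all such islands), the far upstream island of Nr2f1 (0.870), and aTC at 3 (6.39%): that island (0.857), the downstream island of Nr2f1 (0.912) and an island inside Pgr (0.880). Beta cells were above 0.75 at 0 of the 13 (0.0987%), and differentiated ES cells at 1 (2.96%), the downstream island of Nr2f1 on the array of endoderm 1.

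**Figure D5:**
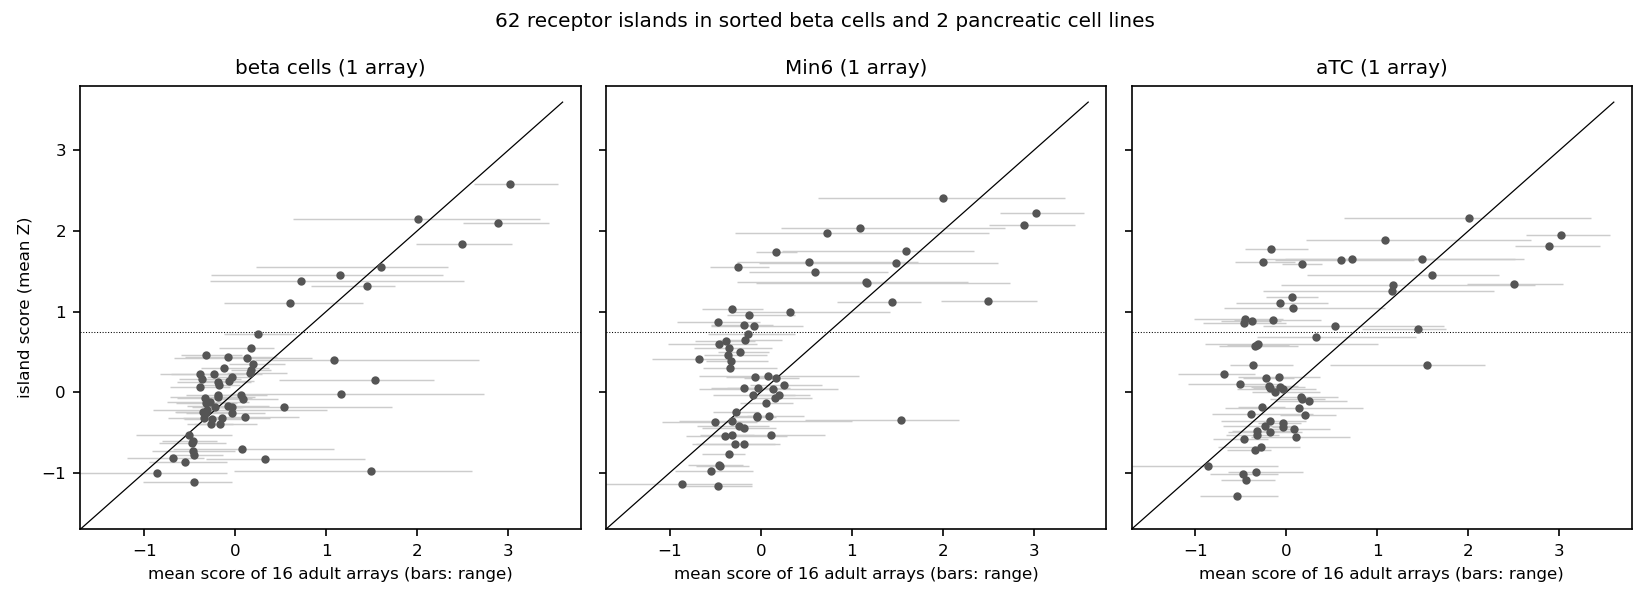
Score of each of 62 receptor islands (vertical axis, mean Z) on the arrays of sorted beta cells, Min6 and aTC against the mean of 16 adult arrays (horizontal axis, with bars from the lowest to the highest adult array). The diagonal marks equal scores and the dotted line 0.75: 9 islands lie above the dotted line in beta cells, 21 in Min6 and 23 in aTC.

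Genes that act with the receptors were read from lists set for this purpose, in differentiated ES cells against adult tissue, where 14.4% of all islands were higher and 8.73% lower. Coactivators and corepressors had 16 islands in 12 of 17 genes, of which 0 rose and 4 fell by limma, among them the corepressor Ncor1 (-0.307) and the coactivators Ppargc1b (-0.202) and Ep300 (-0.278). Genes of retinoic acid synthesis, binding and breakdown had 12 islands in 8 of 13 genes, with 3 rises and 1 fall. The rises were in Rbp4, the retinol carrier (0.633), at the start of Cyp26a1, which degrades retinoic acid (0.571), and in Aldh1a3, which makes it (0.453), and the fall was in Rdh10 (-0.264). Genes of thyroid, steroid and vitamin D hormone metabolism had 6 islands in 6 of 11 genes, of which 3 rose and 0 fell: Cyp27b1, which activates vitamin D (1.67), Srd5a2, a steroid 5-alpha reductase (0.940), and Cyp24a1, which inactivates vitamin D (0.609). Over these lists the median differences were -0.186, 0.0208 and 0.480, against -0.00995 over all islands.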

How the data were processed

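DNA enriched with an antibody to 5-methylcytidine (Cy5) and input DNA (Cy3) were hybridised to Agilent mouse CpG island arrays, 1 array per sample. The deposited scanner files hold a log10 ratio of Cy5 over Cy3 per probe and intensity columns, as the authors' scanner software wrote them, and a deposited value table holds the authors' processed score per probe, a Z-score by melting temperature. Here each array's log10 ratios were turned into Z-scores over its own probes, without that step. Probes within 500 bases were joined into islands of at least 3 probes, and the island score is the mean Z. Groups came from the sample labels, and no sample was unassigned.

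Island scores were fitted with limma 3.58.1 in R 4.3.3 over all 13616 islands, with Benjamini-Hochberg adjustment over all of them and a threshold of 0.05. Islands below 0 on all adult arrays were counted as unmethylated and scores above 0.75 as methylated. The study used these limits on scores built with the melting temperature step left out here, so its counts and these are not comparable. Genes named are those with an island past the threshold (at most 25 per comparison, by size of difference), the 5 highest and 5 lowest adult means, those unmethylated in adult tissue and above 0.75 in differentiated cells, Min6 or aTC, and at most 4 called genes of each further list. Pgr at its other island and the wide tissue means were chosen after their values were seen. Members and lists were chosen with earlier results of these data known. The fits were tested on simulated data. Alternatives were normexp correction on median signals (added once the files had been seen, because 16 of them hold no mean signals for the planned form), the log2 scale, the deposited table, filters on dim probes and on probe number, slide and scan day as blocks, the methods' t-test, and leaving out each array. Tables used Python 3.11.15 with pandas 2.3.3 and numpy 2.4.6. Arrays give no read depth, so their number limits the precision. Single genes of the receptor set and of the further lists enter the counts but are not reported here by name, and 1 island is left out of the plots that name islands.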

Additional observations from a re-analysis of the deposited data

Results flagged for a closer look

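At 3 islands the change on differentiation ran in opposite directions in the arrays derived from EB5 and those labelled as derived from TT2, which was not tested. Downstream of Nr2f1 the difference between the lines' changes was 1.29, downstream of Nr4a2 it was 1.22, and at the high Nr3c2 island it was -0.757. The parent line moves with the differentiation protocol in these arrays, so line and protocol cannot be told apart.

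Among 41 groups of 4 to 10 arrays examined, 2 held an array far from the rest, and chance flags about 1 in 20. The embryo of 8.5 days scored -0.371 at the Rarb start against -0.135 to -0.0873 in the other embryos, and the embryo of 9.5 days scored -0.711 inside Nr6a1 against -0.425 to -0.310.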

How the results depend on the processing

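Of the 1199 recomputed differences at named islands, 960 kept their direction and call, 234 kept the direction and lost the call, and 5 reversed. With slide as a block the reversals were Nr2f1 downstream (-0.0135) and Nr2f6 inside the gene (0.371) in differentiated cells against adult tissue, the Ppard start in embryos against adult tissue (-0.0394) and Nr1h2 in differentiated cells against embryos (0.978), and with scan day Nr4a2 inside the gene in embryos against adult tissue (0.374). No embryo array shared a slide or scan day with an adult or differentiated array. With these blocks the embryo differences therefore rest on the undifferentiated ES cell arrays that link them, for scan day also the array labelled J1. The cause of the reversals was not tested.

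Counts of receptor islands called moved as follows. Differentiated cells against adult tissue gave 19, which became 11 with normexp, 11 with the deposited table, 10 with at least 5 probes, 8 with slide and 10 with scan day as a block. Undifferentiated cells against adult tissue gave 3, which became 0 on the log2 scale, with normexp, with the methods' t-test and with scan day, 1 with only the groups compared and 7 with the deposited table, where 5 of the 7 were higher while all 3 in the original fit were lower. Embryos against adult tissue gave 10, which became 2 with normexp, 5 with the deposited table, 6 with at least 5 probes, 6 with slide as a random block and 0 with slide or scan day as a block. Differentiated against undifferentiated cells gave 1, which became 0 on the log2 scale, with normexp, with the methods' t-test, with only the groups compared and with slide, 2 with the dim-probe filter, scan day or a random slide block, 3 with 1 mean per adult tissue and 4 with the deposited table. The original call was a rise, whereas both calls with scan day were falls, and falls made up 1 of 2 with the dim-probe filter, 1 of 2 with a random slide block, 2 of 3 with 1 mean per tissue and 2 of 4 with the deposited table. Differentiated cells against embryos gave 12, which became 7 with normexp, 5 with the deposited table, 0 with slide, 1 with scan day, 20 with only the groups compared and 19 with 1 mean per adult tissue. Teratomas against differentiated cells gave 6, which became 0 with normexp and with the methods' t-test and 3 with the deposited table, the dim-probe filter or at least 5 probes.

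For 1 tissue against the others 0 became 2 without the brain and liver arrays, which was chosen after seeing the data.

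The 13 islands below 0 on every adult array became 1 at a threshold of -0.25, 30 at 0.25, 5 on the log2 scale and 21 with normexp. Of those, the 1 above 0.75 on a differentiated array became 2 at a threshold of 0.5 and with normexp and 0 with the median of probes or at least 5 probes. The 1 in Min6 became 3 at 0.5, 0 at 1 and 2 with probes on both grids, and the 3 in aTC became 0 at 1 and with the dim-probe filter and 1 with the deposited table, the median of probes or at least 5 probes.

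Leaving out each array in turn gave 15 to 20 calls in differentiated cells against adult tissue, 10 to 13 against embryos and 0 to 3 against undifferentiated cells (0 without endoderm 2 or mesoderm, 2 without TT2 or embryoid bodies, 3 without retinoic acid treated cells). It gave 6 to 10 in embryos against adult tissue, 0 to 7 in undifferentiated cells against adult tissue, 0 to 0 in teratomas against adult tissue, 2 to 6 in teratomas against differentiated cells, 0 to 0 across tissues, 0 to 1 for 1 tissue against the other 7 (1 without liver 2), 13 to 15 islands below 0, and 0 to 1 above 0.75 on a differentiated array (0 without endoderm 1). With the replicate number as a block, 0 islands were called across tissues, for 1 tissue against the others and for teratomas against adult tissue. Correlations of same-numbered arrays ran from -0.253 to 0.629 with a median of 0.106, so the numbers were not taken as pairing. The deposited table left 28 of the 62 islands, the dim-probe filter 40 and the minimum of 5 probes 39. Normexp on mean signals was not run.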

Other observations

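Receptor probes that formed no scored autosomal island were read separately. The X-linked Nr0b1, a repressor of steroidogenic gene expression, averaged 0.513 ± 0.873 on adult arrays, 0.596 in embryos, -0.132 in undifferentiated and -0.140 in differentiated ES cells and -0.520 in teratomas. Esr2, the second estrogen receptor gene, had 1 probe with an adult mean of 1.25 ± 0.222. Thra, a thyroid hormone receptor gene, had 2 probes on every array with an adult mean of -0.871 ± 0.412, and a further Rarg island averaged 0.285 ± 0.229.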
